A study of Arabidopsis thaliana with 10 samples.

Results

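The comparison set MORF2OX(w), the weaker of 2 MORF2 overexpression lines of Arabidopsis thaliana, against its wild type, Col6-3, with both grown on the herbicide norflurazon (NF), and it covered all genes. Its members were the count columns headed MORF2OX(w) NF1 and NF2 and Col6-3 NF1 and NF2, which made 4 of the 10 libraries of the series. Whole seedlings of 5 days had been treated for 5 days with 5 µM norflurazon, in 24 h light of 100 µmol per square metre and second at 22 °C. The other 3 groups, of 2 libraries each, were the line MORF2OX on norflurazon, the mutant gun1-9 on norflurazon and untreated Col6-3 on plain Linsmaier and Skoog medium (LS), all of the same Col6-3 background, age and light. They entered the fit and are given below as landmarks. The labels say that the 2 overexpression lines differ in how strong their phenotype is, but they name neither the promoter of the transgene nor the number of independent plants behind a line. Each library was made from more than 100 pooled plants, and nothing says that the replicates were grown apart, so p-values measure the spread between these samples, which may be technical. Without an untreated MORF2OX(w) library here, what the line does on norflurazon and what it does in any condition cannot be told apart.

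Norflurazon blocks phytoene desaturase, a step of carotenoid synthesis. Without carotenoids, seedlings bleach in the light, their plastids do not develop, and signals from the plastid turn down nuclear genes for photosynthesis. Mutants that keep these nuclear genes on are called genomes uncoupled, and GUN1, a plastid pentatricopeptide repeat protein, is one of the loci found that way. MORF2 belongs to the multiple organellar RNA editing factors, small proteins that work with pentatricopeptide repeat proteins in changing single bases of plastid transcripts from C to U.

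Total counts were 22840943 and 19967185 in MORF2OX(w) NF and 19018594 and 22082438 in Col6-3 NF, within a range of 19018594 to 25220815 over the series. Levels are given in CPM, the counts of a gene brought to a common library size with TMM scaling, and always in the order of replicates 1 and 2. The 2 Col6-3 NF libraries stood further apart than any other replicate pair. A chi-square between their counts, divided by its degrees of freedom, was 36.25 there and 5.244 to 10.13 in the other 4 groups, and their rank correlation over genes was 0.984, against 0.994 to 0.997. Some results below are also given with 1 of these libraries left out, but not every result that may rest on 1 of them.

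Of 20628 genes tested, 2659 (12.9%) differed between MORF2OX(w) NF and Col6-3 NF at an adjusted p under 0.05 (edgeR quasi-likelihood F test, Benjamini-Hochberg). Of these, 1724 (8.36%) were higher and 935 (4.53%) lower in MORF2OX(w), and at a fold of at least 2 there were 304 (1.47%) higher and 321 (1.56%) lower. The median log2 fold change over all genes tested was 0.00792. How many genes passed depended strongly on single libraries: 774 passed without MORF2OX(w) NF replicate 1, 523 without its replicate 2, 2844 without Col6-3 NF replicate 1 and 7757 without its replicate 2. A core of 444 genes passed in the same direction in all 4 of these fits, 368 (1.78%) higher and 76 (0.368%) lower, and calls of this kind are named below as calls that held without each library. With library totals in place of TMM, 3671 genes passed, 839 higher and 2832 lower, and the median of all genes moved to -0.19, so directions below are relative to the bulk of genes.

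**Figure D1:**
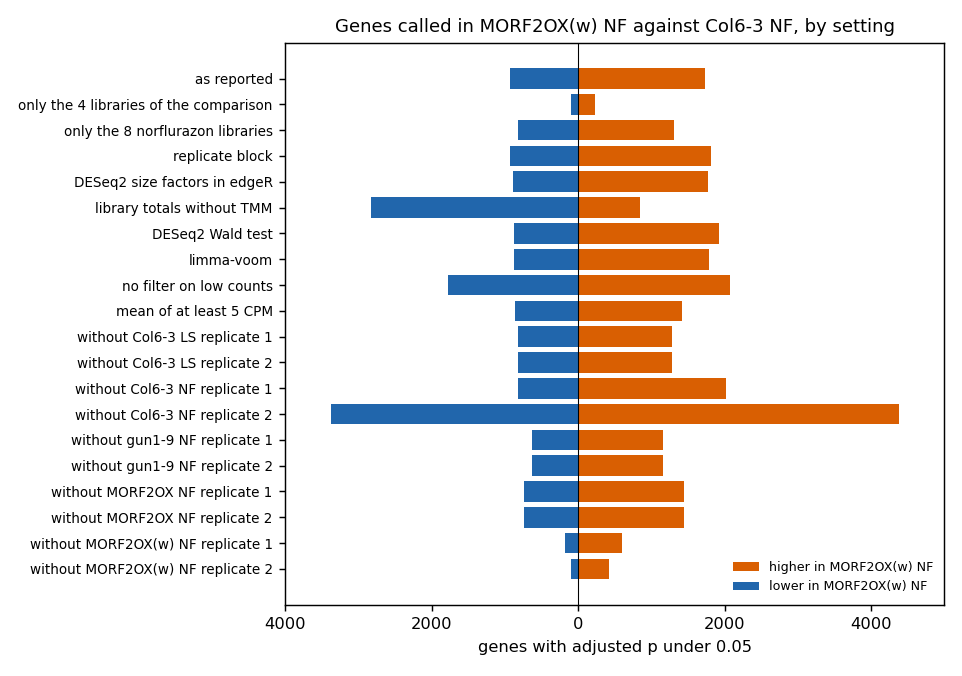
Number of genes with adjusted p under 0.05 in MORF2OX(w) NF against Col6-3 NF under each setting, higher genes to the right and lower genes to the left. The total runs from 335 with the 4 libraries alone to 7757 without Col6-3 NF replicate 2, and the balance of directions turns with library totals (839 higher, 2832 lower).

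**Figure D2:**
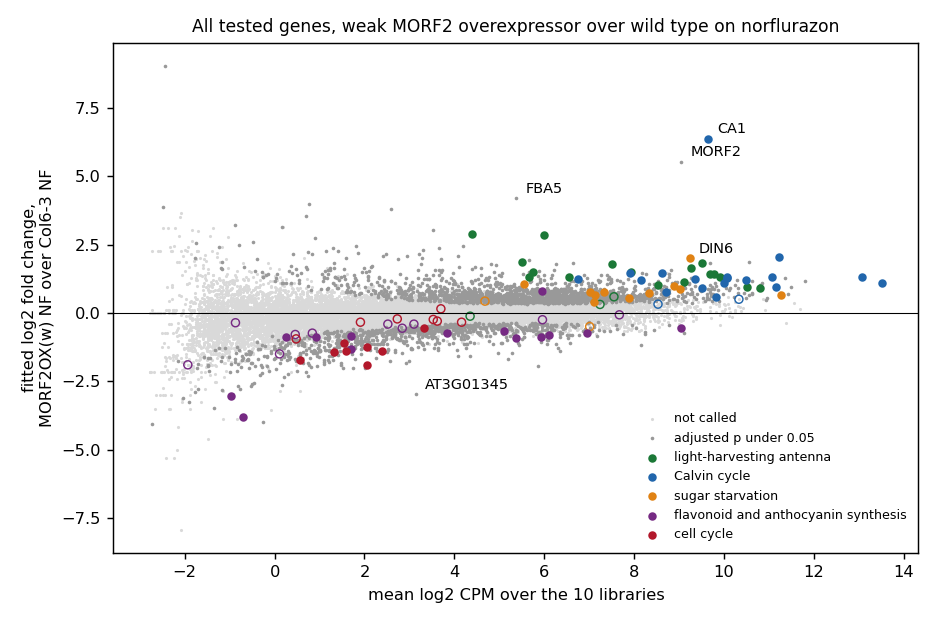
Fitted log2 fold change of MORF2OX(w) NF over Col6-3 NF (vertical axis) against the mean log2 CPM over the 10 libraries (horizontal axis), 1 point per tested gene; dark grey marks adjusted p under 0.05, colours mark 5 gene lists, and open symbols are list members that did not pass. MORF2 (5.53) and CA1 (6.37) stand far above the rest at their level, the antenna, Calvin cycle and sugar starvation members lie mostly above 0, and the flavonoid and cell cycle members lie mostly below it.

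MORF2 itself (AT2G33430) had 4430 and 5012 CPM in MORF2OX(w) NF, against 99.67 and 104.8 CPM in Col6-3 NF. That was a log2 fold change of 5.53 (SE 0.15, adjusted p = 3.28e-09), or 46.2-fold, and it held without each library. The stronger line MORF2OX had 7969 and 7248 CPM, so MORF2OX(w) was lower than it by a log2 fold change of -0.69 (adjusted p = 0.0187). Counts per gene do not separate the transgene from the gene's own copy. In the fit of all 10 libraries with TMM, the other 8 members of the MORF family did not pass the test in either direction. MORF1, which edits mitochondrial transcripts, had 22.53 and 24.45 CPM in MORF2OX(w) NF, against 44.08 and 26.9 CPM in Col6-3 NF (adjusted p = 0.057). Its log2 fold change was -0.2 without Col6-3 NF replicate 1 and -0.9 without Col6-3 NF replicate 2. MORF8, which acts in both organelles, had 126.1 and 133.4 CPM in MORF2OX(w) NF, against 159.7 and 161.6 CPM in Col6-3 NF (adjusted p = 0.0661). With library totals in place of TMM, 5 of the 8 passed as lower, as did 2832 of all 20628 genes tested. GUN1 had 336.7 and 363.7 CPM in MORF2OX(w) NF, against 191.3 and 283.7 CPM in Col6-3 NF, a log2 fold change of 0.56 at an adjusted p of 0.0495. Its groups did not overlap, but the call did not hold without each library.

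Most of the listed nuclear genes for photosynthesis were higher in MORF2OX(w). Among 20 genes of the light-harvesting antenna, the chlorophyll-binding proteins that feed both photosystems, 17 rose and none fell, with a median log2 fold change of 1.36. Of 33 genes of photosystems and electron transport, 31 rose and none fell (median 0.95). Of 20 genes listed under the Calvin cycle, which fixes CO2, with the carbonic anhydrase CA1 among them, 18 rose and none fell (median 1.22). These counts stood against 8.36% of all genes tested. The calls held without each library for 14 antenna, 18 photosystem and 15 Calvin cycle genes, against 1.78% of all genes. Without MORF2OX(w) NF replicate 2, 18 of the photosystem genes passed, against 2.03% of all genes. With a fit of the 4 libraries alone, 11 antenna, 14 photosystem and 15 Calvin cycle genes passed, against 1.17%.

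**Figure D3:**
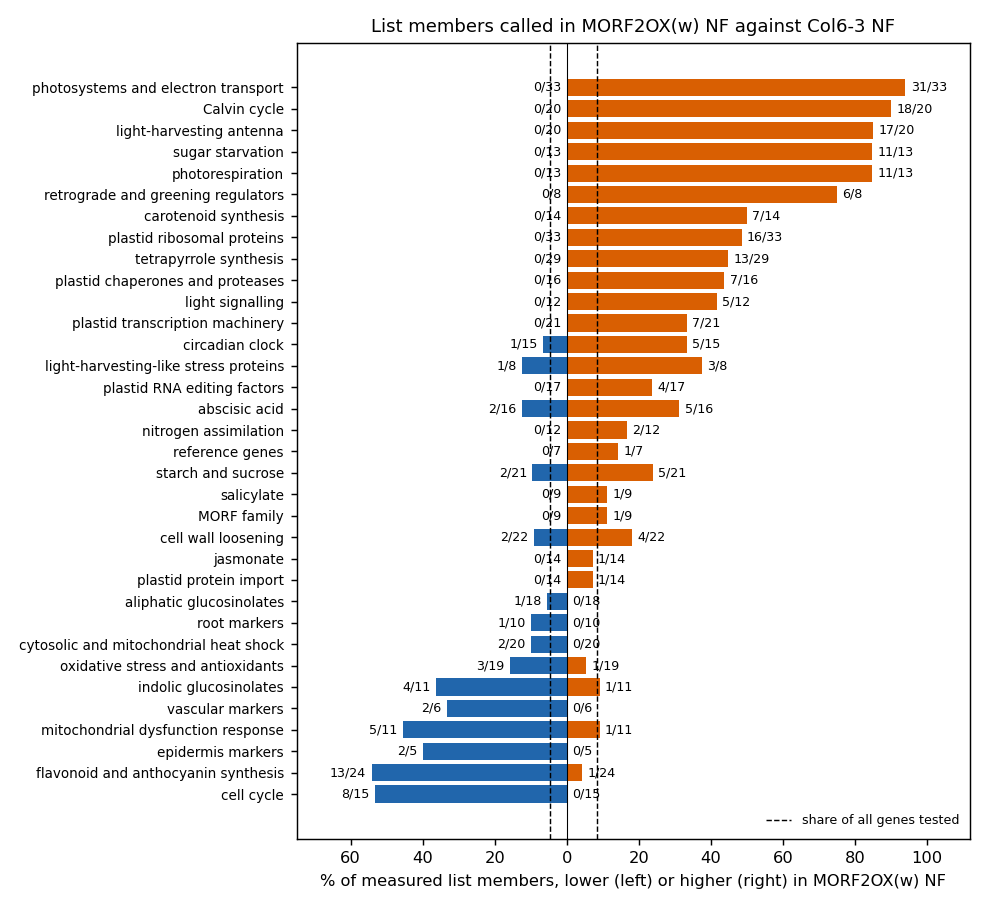
Share of the measured members of each gene list that passed the test as lower (bars to the left) or higher (bars to the right) in MORF2OX(w) NF than in Col6-3 NF, in percent, with the counts beside the bars; dashed lines mark the 4.53% and 8.36% of all genes tested. The photosynthesis and sugar starvation lists lie far to the right of the dashed line, with 31 of 33 photosystem genes, while flavonoid synthesis (13 of 24) and the cell cycle (8 of 15) lie to the left.

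In the antenna, LHCA3, a photosystem I antenna protein, had 314.8 and 330.2 CPM in MORF2OX(w) NF, against 91.71 and 88.4 CPM in Col6-3 NF. The groups were far apart relative to their spread, with a log2 fold change of 1.84 (SE 0.13, adjusted p = 3.27e-05). LHCA1 and LHCA4, which pair in the same antenna, rose by log2 fold changes of 1.63 and 1.43. LHCB1.1, of the major photosystem II antenna, had only 7.822 and 5.663 CPM in MORF2OX(w) NF, against 1.005 and 0.8552 CPM in Col6-3 NF, and its log2 fold change was 2.86 (SE 0.24, adjusted p = 6.77e-05). The near-identical copy LHCB1.3 had 454.2 and 429.6 CPM in MORF2OX(w) NF, against 290.7 and 178.4 CPM in Col6-3 NF. Its log2 fold change was 0.91 (adjusted p = 0.0161), and the call did not hold without each library. Of the exonic 50-mers of LHCB1.1 and LHCB1.3, 20.5% and 17% also occurred in another gene, and 23.5% of those of LHCB2.1, so the split of reads between such copies is uncertain. Not all of the antenna passed. LHCB3, of the same major antenna, had 28.2 and 25.23 CPM in MORF2OX(w) NF, against 21.77 and 13.75 CPM in Col6-3 NF (adjusted p = 0.0706). LHCA5, a minor photosystem I protein, had 94.61 and 103.4 CPM in MORF2OX(w) NF, against 92.09 and 67.88 CPM in Col6-3 NF (adjusted p = 0.19). Without Col6-3 NF replicate 1 the log2 fold changes of LHCB3 and LHCA5 were 0.96 and 0.54. Without Col6-3 NF replicate 2 they were 0.3 and 0.11.

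Subunits of both photosystems rose. PSAL, at the face where photosystem I docks the mobile antenna, had 382.2 and 412.9 CPM in MORF2OX(w) NF, against 110.1 and 114.3 CPM in Col6-3 NF (log2 fold change 1.83, SE 0.13, adjusted p = 2.68e-05). PSAF, which binds the electron donor plastocyanin, and PSAG rose by log2 fold changes of 1.41 and 1.43. PETE1, a plastocyanin, rose by 1.64 at a low level, with 8.409 and 9.391 CPM in MORF2OX(w) NF against 3.391 and 2.352 CPM in Col6-3 NF. In photosystem II, PSBY rose by a log2 fold change of 1.57, PSBS, needed to shed excess light as heat, by 1.14 and PSBO1, of the oxygen-evolving complex, by 0.95. NdhU, a subunit of the chloroplast NDH complex that cycles electrons around photosystem I, was among the 10 largest folds of the higher genes with a mean of at least 10 CPM that met the naming rule. It had 27.45 and 27.35 CPM in MORF2OX(w) NF, against 7.242 and 7.126 CPM in Col6-3 NF (log2 fold change 1.93, SE 0.14, adjusted p = 3.27e-05).

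CA1 (AT3G01500; TAIR10.1, chr3:194426-198664, minus strand), a plastid carbonic anhydrase that interconverts CO2 and bicarbonate, had the largest fold of the genes that met the naming rule. Its level was 486.2 and 437.9 CPM in MORF2OX(w) NF, against 6.07 and 5.131 CPM in Col6-3 NF. The fold was 82.6 (log2 fold change 6.37, SE 0.24, adjusted p = 6.01e-08), larger than that of the overexpressed gene. Its paralog CA2 had 936.5 and 900.6 CPM in MORF2OX(w) NF, against 270.3 and 240.8 CPM in Col6-3 NF, a log2 fold change of 1.85 (adjusted p = 6.77e-05). No exonic 50-mer of CA1 occurred in another annotated gene. FBA5, a fructose-bisphosphate aldolase, had 14.71 and 13.72 CPM in MORF2OX(w) NF, against 0.8372 and 0.7126 CPM in Col6-3 NF (log2 fold change 4.2, SE 0.22, adjusted p = 2.04e-06).

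The small subunit of Rubisco, the enzyme that fixes CO2, is encoded by 4 nuclear genes in the list. RBCS1A had 8555 and 8840 CPM in MORF2OX(w) NF, against 3816 and 4262 CPM in Col6-3 NF (log2 fold change 1.11, adjusted p = 0.00114). RBCS3B had 1411 and 1438 CPM in MORF2OX(w) NF, against 370.2 and 327.1 CPM in Col6-3 NF (log2 fold change 2.03, adjusted p = 6.64e-05). RBCS1B and RBCS2B rose by 1.47 each, although shares of 12%, 16.9% and 16.5% of the exonic 50-mers of RBCS1B, RBCS2B and RBCS3B are held in common with another gene. Rubisco activase (RCA), phosphoribulokinase (PRK), GAPA1, a glyceraldehyde phosphate dehydrogenase, and HCEF1, a fructose-bisphosphatase, rose by log2 fold changes of 1.33, 1.3, 1.31 and 1.2. The transketolase TKL1 did not pass (log2 fold change 0.50, adjusted p = 0.0562). Photorespiration salvages the product of Rubisco's reaction with oxygen. Against 8.36% of all genes tested that were higher, 11 of its 13 listed genes rose and none fell (median 0.88). They included the glycolate oxidase GOX1 (1.15), the aminotransferases GGT1 (1.16) and AGT1 (1.29) and hydroxypyruvate reductase HPR1 (1.02). Without MORF2OX(w) NF replicate 2, 7 of the 13 passed.

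**Figure D4:**
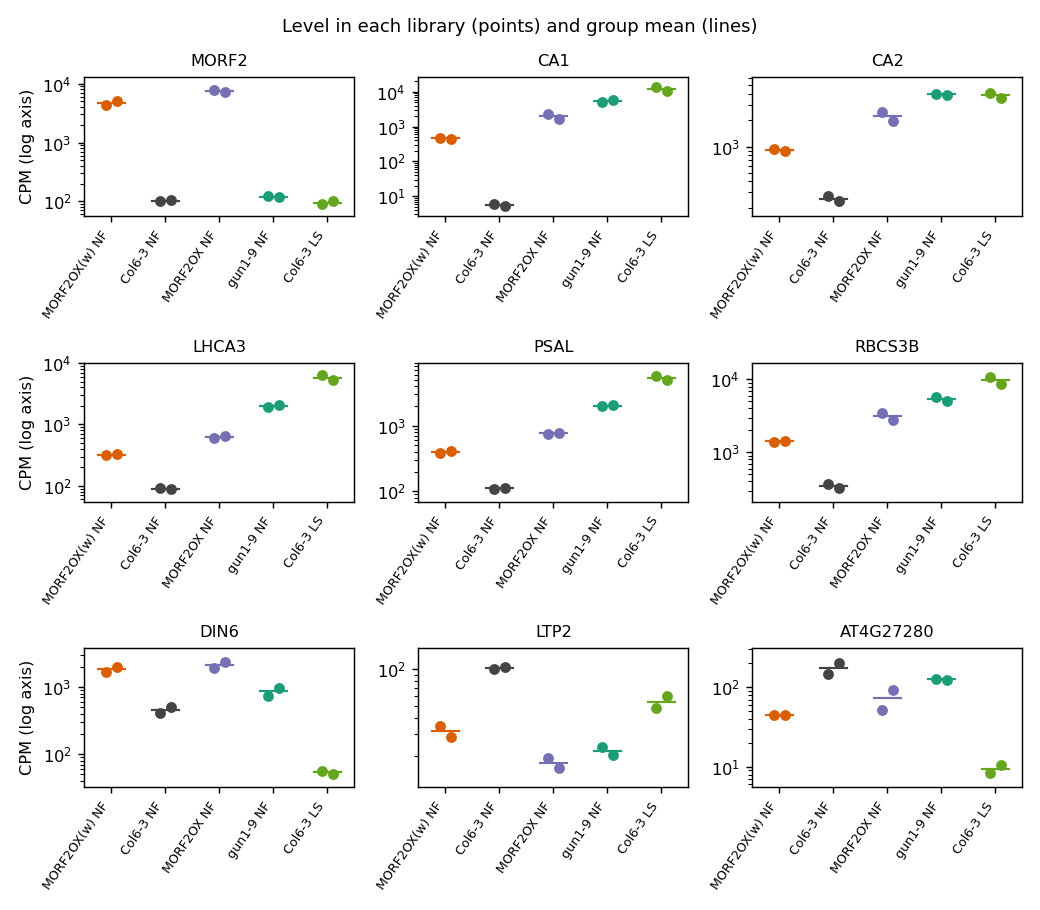
Level of 9 genes in CPM (log axes) in each of the 10 libraries, as points, with group means as lines. In CA1, CA2, LHCA3, PSAL and RBCS3B the MORF2OX(w) NF libraries lie above Col6-3 NF and below the other 3 groups, in DIN6 they lie above Col6-3 NF, gun1-9 NF and Col6-3 LS, and in LTP2 and AT4G27280 they lie below Col6-3 NF.

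Promoters of genes that moved together were read for 2 short motifs that light-regulated plant promoters are known for, the G-box CACGTG and the core GATAAG of the I-box, each on both strands, in the 250 bases before the annotated gene start (TAIR10.1, RefSeq annotation). Among 27437 protein-coding genes, 6.49% held a G-box and 12.3% an I-box core. Of the 20 antenna promoters 4 held a G-box and 4 an I-box core, of the 33 photosystem promoters 6 and 9, and of the 20 Calvin cycle promoters 3 and 4. Of the 14 sugar starvation promoters 1 and 5 held them, and of the 25 flavonoid promoters, whose genes mostly moved the other way, 6 and 2. Lists with few or no calls varied as well: of 12 seed storage promoters 7 and 1 held them, of 16 jasmonate promoters 1 and 6, and of 7 reference gene promoters 0 and 0. The motifs were thus not confined to lists that moved, and a link to the changes was not tested. A match is a run of letters and not a bound site. The 6 promoters printed here were chosen after their values were seen, to show an antenna promoter with neither motif (LHCA3, chr1:22699465-22699714, plus strand), one with a G-box 88 bases before the start (LHCA4, chr3:17495034-17495283, minus strand), and a photosystem promoter with an I-box core (PSAF, chr1:11216142-11216391, minus strand). The Calvin cycle gene HCEF1 (chr3:20016587-20016836, plus strand) and the starvation gene DIN6 (chr3:17441432-17441681, minus strand) hold 1 G-box and 2 I-box cores each, and the flavonoid gene CHIL (chr5:1563036-1563285, plus strand), which fell, holds a G-box. They run 5′ to 3′ on the strand of the gene up to its annotated start, and capitals mark the motifs. In DIN6 the small gene AT3G47341 on the other strand overlaps the window.
LHCA3: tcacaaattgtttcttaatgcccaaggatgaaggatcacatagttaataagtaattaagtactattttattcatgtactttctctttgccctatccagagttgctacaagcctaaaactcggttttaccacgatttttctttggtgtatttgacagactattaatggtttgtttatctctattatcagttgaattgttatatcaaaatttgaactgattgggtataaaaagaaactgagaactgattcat
LHCA4: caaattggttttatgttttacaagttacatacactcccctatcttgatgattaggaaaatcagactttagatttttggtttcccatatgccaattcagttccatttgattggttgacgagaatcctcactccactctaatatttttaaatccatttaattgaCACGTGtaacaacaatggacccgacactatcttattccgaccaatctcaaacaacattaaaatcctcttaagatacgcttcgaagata
PSAF: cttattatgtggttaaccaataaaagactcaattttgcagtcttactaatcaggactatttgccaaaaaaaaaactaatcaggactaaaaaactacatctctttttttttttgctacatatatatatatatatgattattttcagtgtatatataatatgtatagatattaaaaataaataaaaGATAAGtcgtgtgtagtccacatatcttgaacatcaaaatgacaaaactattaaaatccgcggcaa
HCEF1: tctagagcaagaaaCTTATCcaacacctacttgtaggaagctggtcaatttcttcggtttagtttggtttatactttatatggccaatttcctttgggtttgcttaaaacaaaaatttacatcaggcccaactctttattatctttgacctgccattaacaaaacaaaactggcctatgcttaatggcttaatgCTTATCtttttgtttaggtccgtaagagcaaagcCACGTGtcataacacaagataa
DIN6: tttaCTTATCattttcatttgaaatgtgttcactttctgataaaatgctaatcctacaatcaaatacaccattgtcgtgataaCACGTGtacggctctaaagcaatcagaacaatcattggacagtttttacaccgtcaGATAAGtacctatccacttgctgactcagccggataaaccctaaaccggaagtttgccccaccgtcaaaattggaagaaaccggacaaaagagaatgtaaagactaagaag
CHIL: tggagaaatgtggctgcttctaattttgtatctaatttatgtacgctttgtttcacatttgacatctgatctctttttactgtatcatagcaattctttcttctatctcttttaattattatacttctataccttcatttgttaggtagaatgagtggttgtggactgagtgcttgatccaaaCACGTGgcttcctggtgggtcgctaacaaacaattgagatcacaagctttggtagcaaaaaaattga

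Chlorophyll and carotenoid synthesis had smaller medians than the lists above. Their counts stand against 8.36% of all genes tested that were higher and 4.53% that were lower. Of 29 tetrapyrrole genes measured, 13 rose and none fell (median log2 fold change 0.42), and 4 calls held without each library, the same number as passed without either MORF2OX(w) NF library alone. HEMA1, the glutamyl-tRNA reductase that opens the pathway, had 290.2 and 308.9 CPM in MORF2OX(w) NF, against 117.4 and 165.6 CPM in Col6-3 NF (log2 fold change 1.08, adjusted p = 0.00129). GUN5, the large subunit of magnesium chelatase, CAO, which makes chlorophyll b, and CHLM, the methyltransferase after the chelatase, rose by 0.91, 0.88 and 0.79. GUN4, the activator of the chelatase, had 48.42 and 48.25 CPM in MORF2OX(w) NF, against 45.21 and 31.96 CPM in Col6-3 NF. It did not pass (adjusted p = 0.208). Its log2 fold change was 0.6 without Col6-3 NF replicate 1 and 0.1 without Col6-3 NF replicate 2. Of 14 carotenoid genes, 7 rose and none fell (median 0.46), and 3 passed without either MORF2OX(w) NF library. PDS3, the phytoene desaturase that norflurazon inhibits, had 129.5 and 142.6 CPM in MORF2OX(w) NF, against 88.87 and 96.24 CPM in Col6-3 NF (log2 fold change 0.56, adjusted p = 0.0123).

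Genes that build and run the plastid gene expression machinery showed small and less stable differences. Of 33 nuclear genes for plastid ribosomal proteins, 16 rose and none fell (median log2 fold change 0.46), with RPL3 the highest at 0.76. None of these calls held without each library. The count was 3 without MORF2OX(w) NF replicate 1, 0 without its replicate 2, 33 without Col6-3 NF replicate 1 and 16 without its replicate 2, against 2.87%, 2.03%, 9.76% and 21.3% of all genes. The summed level of the list was 8486 and 8751 CPM in MORF2OX(w) NF, against 7314 and 5567 CPM in Col6-3 NF, where the second library was the lower. Among 17 plastid RNA editing factors 4 rose, of which only DYW1, a protein needed to edit a transcript of the NDH complex, held without each library (log2 fold change 1.09, adjusted p = 6.56e-04). Among 21 genes of plastid transcription 7 rose, including the sigma factors SIG1, SIG2 and SIG3 with 0.47, 0.57 and 0.50, and none of these calls held without each library. With library totals, 5 of the ribosomal protein genes and 1 of the transcription genes were higher, and 1 transcription gene was lower. Of all 20628 genes tested, 839 were higher and 2832 lower at that setting. Of 14 genes of protein import, TIC55 alone passed. In the fit of all 10 libraries with TMM, 8.36% of all genes were higher, and the import count lay near that share.

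Transcription factors that tie greening to light rose in part. BBX14, a B-box protein, had 93.12 and 95.53 CPM in MORF2OX(w) NF, against 37.8 and 35.17 CPM in Col6-3 NF (log2 fold change 1.37, adjusted p = 1.89e-04). PIF5, a phytochrome-interacting factor, had 76.42 and 79.37 CPM in MORF2OX(w) NF, against 20.64 and 31.53 CPM in Col6-3 NF (1.58, adjusted p = 3.75e-04), and PIF4 rose by 1.37. GLK1 and GLK2, the activators of antenna genes, rose by 0.71 and 0.58 and remained low for GLK1, at 7.313 and 6.169 CPM in MORF2OX(w) NF against 3.056 and 5.131 CPM in Col6-3 NF. Those GLK calls did not hold without each library. In the circadian clock, LNK2, a coactivator of evening genes, rose by 1.27 and PRR7 by 1.13. ELF4, of the evening complex, fell by 0.77 on the log2 scale. Of 12 light signalling genes 5 rose and none fell, and of 15 clock genes 5 rose and 1 fell. The shares of all genes were 8.36% higher and 4.53% lower. Most of these light signalling and clock calls did not hold without each library, although that of ELF4 did. With the 4 libraries alone, 2 light signalling genes and 1 clock gene passed, all higher, against 1.17% of all genes.

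A second block that rose, against 8.36% of all genes tested that were higher, consisted of genes induced by darkness and sugar starvation. Of 13 measured genes of that list, 11 rose and none fell (median log2 fold change 0.74), and 7 calls held without each library, as many as passed without MORF2OX(w) NF replicate 2. DIN6, the asparagine synthetase of the dark response, had 1666 and 1988 CPM in MORF2OX(w) NF, against 404.5 and 508.4 CPM in Col6-3 NF (log2 fold change 2.00, SE 0.18, adjusted p = 1.19e-04). SEN1, DIN2, a beta-glucosidase, and the sugar transporter STP1 rose by 0.99, 1.05 and 0.86. The enzymes of leucine breakdown MCCA and IVD rose by 0.74 and 0.76. EXL1, a starvation gene of the same list, did not pass, with 156.4 and 188.6 CPM in MORF2OX(w) NF, against 186.8 and 301.6 CPM in Col6-3 NF. With the fit of the 4 libraries alone, 2 of the 13 passed, against 1.17% of all genes that were higher. In starch and sucrose metabolism 5 of 21 rose and 2 fell, and few of these calls held without each library. The shares of all genes were 8.36% higher and 4.53% lower. With library totals 4 of the 21 rose and 5 fell, where 839 and 2832 of all 20628 genes did. The plastid triose phosphate transporter APE2 (1.08) and the starch synthase GBSS1 (1.57) were among the higher in the main fit. GBSS1 was low, at 4.771 and 4.373 CPM in MORF2OX(w) NF, against 1.507 and 1.568 CPM in Col6-3 NF.

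Flavonoid and anthocyanin genes were mostly lower in MORF2OX(w). Of 24 measured, 13 fell and 1 rose (median log2 fold change -0.77), against 4.53% of all genes that were lower, and 3 calls held without each library. The chalcone isomerase CHI had 39.27 and 39.41 CPM in MORF2OX(w) NF, against 82.46 and 67.1 CPM in Col6-3 NF, and fell by 0.93 on the log2 scale (adjusted p = 0.00175). CHS, the entry enzyme, fell by 0.54, its partner CHIL by 0.89 and the flavonol synthase FLS1 by 0.80. The calls of CHS and FLS1 did not hold without each library. The late anthocyanin genes DFR and LDOX were among the calls that held without each library, but they had few reads. DFR had 3 and 2 counts in MORF2OX(w) NF (0.1173 and 0.09207 CPM), against 1.005 and 2.031 CPM in Col6-3 NF, and LDOX had 6 and 1 counts (0.2347 and 0.04604 CPM), against 1.005 and 1.497 CPM in Col6-3 NF. TTG1, a regulator of the pathway with roles in hair patterning, was the gene that rose (0.81). The number of flavonoid genes that fell was 4 without MORF2OX(w) NF replicate 1 and 6 without its replicate 2, against 0.887% and 0.509% of all genes, and 4 with the 4 libraries alone, against 0.514%.

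Parts of the mitochondrial stress and cell cycle lists were also lower, against 4.53% of all genes that were lower. Among 11 measured genes of the response to mitochondrial dysfunction, 5 fell, 1 rose and 5 did not pass, and 2 fell without either MORF2OX(w) NF library. AOX1A, the alternative oxidase, had 42.32 and 46.4 CPM in MORF2OX(w) NF, against 80.33 and 73.05 CPM in Col6-3 NF. It fell by 0.79 (adjusted p = 0.00174). ANAC013, a factor that activates AOX1A, fell by 0.46, and its call did not hold without each library. NDA1, an alternative NADH dehydrogenase, was the one that rose (0.70). Among 20 genes of heat shock the mitochondrial small heat shock proteins AT5G51440 and HSP23.6 fell, and the others did not pass. HSP23.6 had only 11 and 7 counts in MORF2OX(w) NF, and its call did not hold without each library. With library totals 6 of the 20 were lower, as were 2832 of all 20628 genes tested. Of 15 cell cycle genes, 8 fell, none rose and 7 did not pass (median -0.95), and 3 fell without either MORF2OX(w) NF library. They were scarce in every norflurazon library, with a summed level of 68.79 and 71.54 CPM in MORF2OX(w) NF, against 111.1 and 92.11 CPM in Col6-3 NF and 312.3 and 329.4 CPM in untreated Col6-3. CDC20.1, an activator of the anaphase complex, fell by 1.91 on the log2 scale and CDKB2;1, a mitotic kinase, by 1.25, and these 2 calls held without each library. Shared sequence makes CDC20.1 uncertain, since 33.2% of its exonic 50-mers occur in another gene. 3xHMG-box2, a protein of mitotic chromosomes, fell by 1.84. In whole seedlings, fewer cells of a type and less RNA per cell cannot be told apart.

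Some markers of single organs or cell types were lower in MORF2OX(w) NF and none were higher. Against 4.53% of all genes that were lower, 2 of 6 vascular markers (XCP1 and IRX1), 2 of 5 epidermis markers (PDF1 and CER1), 1 of 10 root markers (WER) and 0 of 7 stomatal lineage markers fell. Without MORF2OX(w) NF replicate 1 the vascular and epidermis counts were 1 each, and without its replicate 2 they were 1 and 0. XCP1, IRX1 and WER had few reads in MORF2OX(w) NF, with 25 and 26, 18 and 18, and 35 and 24 counts. The calls of IRX1 and WER did not hold without each library. Every one of these vascular, epidermis, root and stomatal markers had counts in all 4 libraries except NRT2.1. That nitrate transporter of roots had 1 count in all. Summed root markers were 104.7 and 105.3 CPM in MORF2OX(w) NF, against 96.74 and 115 CPM in Col6-3 NF. Summed vascular markers were 168.8 and 145.6 CPM in MORF2OX(w) NF, against 181.1 and 179.4 CPM in Col6-3 NF. Summed stomatal markers were 77.59 and 75.78 CPM in MORF2OX(w) NF, against 72.63 and 69.23 CPM in Col6-3 NF. The stomatal sums were thus slightly higher and the vascular sums lower in MORF2OX(w). Summed epidermis markers were 536 and 528.9 CPM in MORF2OX(w) NF, against 431.9 and 582.6 CPM in Col6-3 NF. Seed storage genes summed to 5.866 and 1.473 CPM in MORF2OX(w) NF, against 10.97 and 29.43 CPM in Col6-3 NF, where the second library was the highest, and none of the 9 measured passed. Their part in the results above was not tested. Of 7 reference genes, ACT2 rose by 0.66 and the others did not pass.

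Outside the lists, further genes with the largest folds under the naming rule had varied roles. PI, the floral homeotic factor PISTILLATA, had 34.22 and 43.18 CPM in MORF2OX(w) NF, against 9.209 and 8.195 CPM in Col6-3 NF (log2 fold change 2.15, SE 0.23, adjusted p = 2.58e-04). NAP, a NAC factor of leaf senescence, rose by 2.02, the protein kinase CIPK20 by 2.46, the bHLH factor AT5G50915 by 1.97 and the uncharacterized AT3G43850 by 1.98. AT3G01345, an uncharacterized gene, had the largest fold among the lower genes that met the naming rule, which asks for a mean of at least 10 CPM, with 1.721 and 1.565 CPM in MORF2OX(w) NF, against 10.63 and 15.11 CPM in Col6-3 NF (log2 fold change -2.97, SE 0.33, adjusted p = 3.10e-04). AT4G27280, of the calcium-binding EF-hand family, had 44.78 and 45.25 CPM in MORF2OX(w) NF, against 146.8 and 203.3 CPM in Col6-3 NF, and ACS6, an enzyme of ethylene synthesis, fell by 1.58. LTP2, a lipid transfer protein of the cuticle, had 34.85 and 28.45 CPM in MORF2OX(w) NF, against 100.5 and 102.8 CPM in Col6-3 NF (log2 fold change -1.68, SE 0.15, adjusted p = 1.15e-04). KAT5, a peroxisomal thiolase, and AT5G38940, a cupin, fell by 1.59 and 1.47.

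Set beside the stronger line, MORF2OX(w) had lower photosynthesis transcripts. Against MORF2OX NF, 374 of 20628 genes (1.81%) passed, 65 (0.315%) higher and 309 (1.5%) lower. Lower in MORF2OX(w) were 17 of 20 antenna genes (median log2 fold change -0.96), 22 of 33 photosystem genes (-0.82) and 14 of 20 Calvin cycle genes (-0.81), and none were higher. CA1 had 486.2 and 437.9 CPM in MORF2OX(w) NF, against 2315 and 1636 CPM in MORF2OX NF (log2 fold change -2.10, adjusted p = 9.69e-04). For starvation genes, 1 of 13 (EXL1) was lower and none higher, and DIN6 had a log2 fold change of -0.23 (adjusted p = 0.689). No flavonoid or cell cycle gene passed in this comparison, with medians of 0.42 and 0.33. The count of 374 depended on single libraries: it was 17 without MORF2OX(w) NF replicate 1, and 0 without its replicate 2 by edgeR, where 1576 genes had an unadjusted p under 0.05. It was 187 and 100 without replicates 1 and 2 of MORF2OX NF, 146 without either gun1-9 NF library, 230 without either Col6-3 LS library, and 1545 and 1537 without replicates 1 and 2 of Col6-3 NF.

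Against gun1-9 NF, 7366 genes (35.7%) passed, 3440 (16.7%) higher and 3926 (19%) lower, and against untreated Col6-3, 13525 genes (65.6%) passed, 6346 (30.8%) higher and 7179 (34.8%) lower. All 20 antenna genes were lower in MORF2OX(w) NF than in gun1-9 NF (median -3.39), and all 20 were lower than in untreated seedlings (median -5.57). The summed antenna level was 3351 and 3464 CPM in MORF2OX(w) NF, against 1750 and 1256 CPM in Col6-3 NF, 6499 and 6215 CPM in MORF2OX NF, 26830 and 28480 CPM in gun1-9 NF and 147600 and 130000 CPM in Col6-3 LS. Photosystem genes had the same order of groups. For starvation genes the order differed: their sum was 10530 and 11470 CPM in MORF2OX(w) NF, against 5673 and 6702 CPM in Col6-3 NF, 11880 and 13470 CPM in MORF2OX NF, 6754 and 7499 CPM in gun1-9 NF and 926.9 and 878.3 CPM in Col6-3 LS. Of the 13, 9 were higher and 2 lower in MORF2OX(w) NF than in gun1-9 NF. The count of 7366 was 4622 and 4710 without replicates 1 and 2 of MORF2OX(w) NF and 4568 without gun1-9 NF replicate 2. Heat shock genes summed to 388.9 and 365.3 CPM in MORF2OX(w) NF, against 3149 and 3017 CPM in gun1-9 NF, and 18 of 20 were lower. These comparisons share the MORF2OX(w) NF libraries with the main one and are not independent of it.

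**Figure D5:**
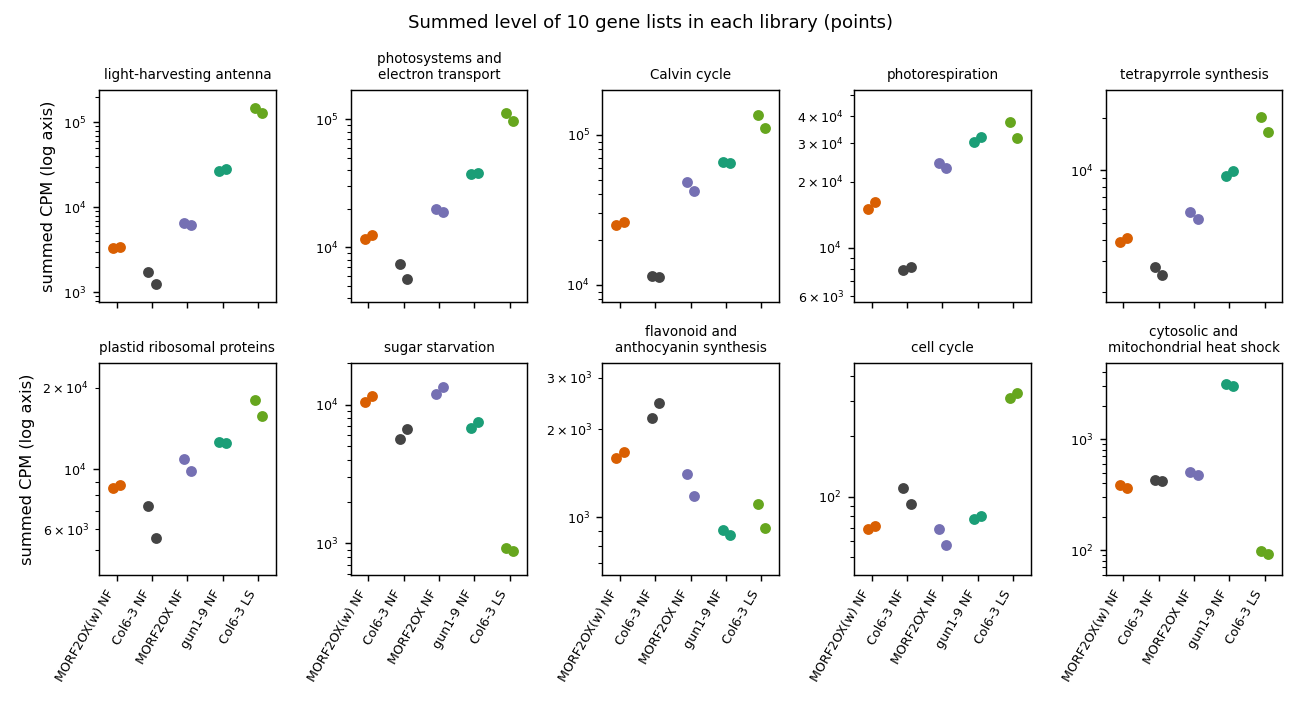
Summed CPM (log axes) of 10 gene lists in each library, as points, for MORF2OX(w) NF, Col6-3 NF, MORF2OX NF, gun1-9 NF and Col6-3 LS. The MORF2OX(w) NF antenna sums (3351 and 3464) lie between Col6-3 NF and MORF2OX NF, the starvation sums (10530 and 11470) lie above Col6-3 NF and below MORF2OX NF (11880 and 13470), and the flavonoid sums (1598 and 1677) lie below Col6-3 NF (2191 and 2464).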

How the data were processed

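Raw read counts per gene were taken as the authors deposited them, 1 table of 33602 genes per library. The submitters' processing notes name TAIR10 as the build, HTSeq 0.6.1, TopHat2 2.1.1 with Bowtie2 2.3.1, and edgeR. The strand setting of the counting is not given in the sources used here, so genes that overlap another on the opposite strand (such as DIN6, PSAG, RCA, PRK, GOX1, BBX14, LNK2, KAT5, THA1 and 3xHMG-box2) are uncertain. From the counts, CPM and log2 fold changes were computed here, not by the authors, with TMM factors between 0.7223 and 1.271. All 10 libraries entered 1 fit of 5 group means (edgeR 4.0.16 in R 4.3.3, filterByExpr, glmQLFit, glmQLFTest), with Benjamini-Hochberg adjustment over 20628 genes and a threshold of 0.05. The SE is the size of the log2 fold change divided by the square root of F. The fit assumes 1 spread for all groups, with 5 residual degrees of freedom, although Col6-3 NF varied more.

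The genes named were MORF2, GUN1, the 10 largest folds in each direction with a mean of at least 10 CPM, groups that did not overlap and calls that held without each of the 4 libraries, and up to 4 per list with at least 5 CPM. Further list members and all genes of the closing section were chosen after their values were seen. The comparison and the 36 lists (567 genes, 551 tested) were chosen with earlier results of these data known, and lists are described by counts and medians, with no test of the list. Alternatives were other libraries in the fit, a replicate block, other scalings, filters and tools (DESeq2 1.42.0, limma 3.58.1), and leaving out each library. Gene names and coordinates came from the RefSeq annotation of TAIR10.1, which matched 32835 of the IDs. MORF2's locus was not matched, so its position is not given.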

Additional observations from a re-analysis of the deposited data

How the results depend on the processing

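With only the 4 libraries of each comparison, 335 genes passed against Col6-3 NF and 1286 against MORF2OX NF. Against MORF2OX NF, the 8 norflurazon libraries gave 237 genes, DESeq2 gave 638 and no filter on low counts gave 870. Leaving out 1 library at a time gave 523 to 7757 genes against Col6-3 NF, 0 to 1545 against MORF2OX NF, 4568 to 9847 against gun1-9 NF and 11437 to 15054 against Col6-3 LS. Both 523 and 0 came without MORF2OX(w) NF replicate 2, and a lone library is assumed to vary like the other groups. The 0 is from edgeR, with 1576 genes at an unadjusted p under 0.05, and no other tool was run on that subset. Library totals in place of TMM shifted the balance of directions in all 4 comparisons, and turned it in all but that against MORF2OX NF: 839 of 3671 calls were higher against Col6-3 NF (1724 of 2659 with TMM), 145 of 303 against MORF2OX NF (65 of 374), 6035 of 8584 against gun1-9 NF (3440 of 7366) and 10756 of 14899 against Col6-3 LS (6346 of 13525). No filter on low counts gave 3861 genes against Col6-3 NF, of which 53.8% were higher, and leaving out MORF2OX(w) NF replicate 2 gave 79.9%. The count against Col6-3 NF was 2670 with DESeq2 size factors, 2801 with DESeq2, 2665 with limma-voom, 2132 with the 8 norflurazon libraries and 2274 for genes of at least 5 CPM. The replicate numbers are shared by all groups, but nothing says that they pair the samples, and deviations of MORF2OX(w) NF and Col6-3 NF correlated by 0.079. With a replicate block, 2753 genes passed against Col6-3 NF. Of 174 named genes under 19 alternatives, 2946 of 3296 values kept direction and side of the threshold, 322 lost the call, 28 gained it and 0 changed sign. By gene, 86 of the 174 lost the call under at least 1 alternative, and 79 lost it with the 4 libraries alone. The 10 largest folds in each direction had been chosen for calls that held without each of the 4 libraries. Their stability in those fits was therefore fixed in advance. The cause of the shifts between settings was not tested. Depth limits genes of a few counts, such as DFR and LDOX.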

Other observations

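Lipid-transfer genes that lie side by side on chromosome 4 were lower in MORF2OX(w) NF than in Col6-3 NF. AT4G22505 had 54.17 and 40.28 CPM in MORF2OX(w) NF, against 112.3 and 152.3 CPM in Col6-3 NF (log2 fold change -1.48, adjusted p = 0.00225). Its neighbours AT4G22513, AT4G22517 and AT4G22520, annotated in the same bifunctional inhibitor and lipid-transfer family, fell by 1.76, 2.00 and 1.38 on the log2 scale. All 4 were higher in MORF2OX(w) NF than in gun1-9 NF, where AT4G22505 had 3.558 and 5.115 CPM (log2 fold change 3.44, adjusted p = 2.36e-06). Other annotated genes overlap each of the 4 on the opposite strand, so these values are uncertain. Nucleolar genes FIB2, a fibrillarin that methylates ribosomal RNA, and AT5G27120, annotated as NOP56-like, fell by 1.13 and 0.97. AT1G17960, annotated as a threonyl-tRNA synthetase, had 160.1 and 137.2 CPM in MORF2OX(w) NF, against 281.8 and 263.9 CPM in Col6-3 NF, 84.96 and 82.57 CPM in MORF2OX NF and 8.203 and 6.448 CPM in gun1-9 NF. AT2G18193, annotated as a nucleoside triphosphate hydrolase, and the plastid enolase ENO1 fell by 1.19 and 1.00. Among higher genes, the threonine aldolase THA1 had 463.6 and 512.4 CPM in MORF2OX(w) NF, against 196.5 and 192.3 CPM in Col6-3 NF (log2 fold change 1.33, adjusted p = 1.92e-04). The ferric reductase FRO6, the cyclin CYCP2;1, the photosystem II assembly factor PSB27, the sucrose phosphate synthase ATSPS4F and the inositol oxygenase MIOX4 rose by 1.78, 1.79, 1.41, 1.52 and 1.39.

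The counts of the remaining lists stand against 8.36% of all genes that were higher and 4.53% that were lower, and few of their calls held without each library. Of 16 plastid chaperone and protease genes 7 rose, with the thylakoid protease genes FTSH1 and VAR2 at 0.88 and 0.87, and none fell. That count was 4 without MORF2OX(w) NF replicate 1, 1 without its replicate 2, 4 with library totals and 0 with the 4 libraries alone. Among 8 stress relatives of the antenna proteins 3 rose and ELIP1, the early light-induced protein, fell by 0.80, but none passed without either MORF2OX(w) NF library. Of 12 nitrogen genes, GLN2 and GLU1, the plastid glutamine synthetase and glutamate synthase, rose by 1.01 and 0.73. The nitrate reductase NIA2 did not pass (adjusted p = 0.0586). For NIA2 the log2 fold change was 0.29 without Col6-3 NF replicate 1 and 1.02 without Col6-3 NF replicate 2. In abscisic acid signalling 5 of 16 rose, among them RD26 (0.95), and 2 fell. Without MORF2OX(w) NF replicates 1 and 2, 2 and 1 were higher, and none were lower. JAZ10, a jasmonate repressor, rose by 2.26 at 3.324 and 4.097 CPM in MORF2OX(w) NF, against 0.7116 and 0.8195 CPM in Col6-3 NF, and was the only one of 14 jasmonate genes that passed. NPR1 was the only one of 9 salicylate genes, at 0.52, and did not pass without either MORF2OX(w) NF library. In indolic glucosinolate synthesis 4 of 11 fell and CYP81F2 rose. Without MORF2OX(w) NF replicates 1 and 2, 1 and 2 were lower and none higher, none passed with the 4 libraries alone, and 6 were lower with library totals. Of 18 aliphatic glucosinolate genes GSTU20 fell. Oxidative stress genes were split, with ZAT10, ZAT12 and CSD1 lower and FSD1 higher among 19. Without either MORF2OX(w) NF library none of the 19 were lower, and 6 were with library totals. In cell wall loosening 4 of 22 rose, including EXPA1 (1.2), and 2 fell (2 and 6 with library totals, 1 and 1 without either MORF2OX(w) NF library).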
